A study of Mus musculus with 8 samples.

Results

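Bmp2 P2rx7 Mmp13 macrophages were defined here as eye cells in which at least 2 of the 4 genes Bmp2, P2rx7, Mmp13 and Col14a1 had a unique molecular identifier (UMI, a counted RNA molecule). Members also had a UMI of the macrophage receptor gene Csf1r and none of Lyve1, Cd3e or Cd79a. They held fewer than 2 of the inflammatory genes Gdf15, Cxcl1 and Cxcl3 and fewer than 2 of the microglial genes Tmem119, P2ry12 and Sall1. Members were thus chosen by the measured UMIs of these genes, and the rule found 208 of them among 11223 kept cells. The cells were live CD45+ immune cells from posterior eye cups of female mice. RNA of single cells was sequenced, and antibodies that carry DNA barcodes were counted in the same cells as antibody tags. The libraries were Nr4a1-/- laser, Nr4a1-/- control, WT laser and WT control, and each condition was 1 library of pooled eyes. Laser eyes came from 11 to 12 mice per genotype, 3 days after 8 laser burns per eye, and control eyes came from 22 mice per genotype. The titles of the control samples read no laser.

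The mice were 10 to 12 weeks old, and laser burns of this kind break the membrane under the retina and start the growth of choroidal vessels. Nr4a1-/- mice carry the deletion in all cells, so that no value below separates an effect inside macrophages from effects elsewhere. The labels give C57BL/6J for every sample, whereas the methods of the study give another strain for the Nr4a1-/- mice. The Nr4a1-/- control library also carries a different library number from the other libraries. Genotype, strain background and library therefore cannot be told apart.

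Macrophages of the eye wall and of other tissue borders are commonly divided into long-lived resident cells, which carry Lyve1, Timd4 and Folr2, and cells that descend from blood monocytes through Ccr2. Bmp2 is a secreted bone morphogenetic protein, P2rx7 is an ion channel opened by extracellular ATP that can activate the NLRP3 inflammasome, Mmp13 is a collagenase and Col14a1 is a collagen that binds to fibrils. Ms4a7 encodes a membrane protein of macrophages outside the brain parenchyma.

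The members numbered 30 in Nr4a1-/- laser, 42 in Nr4a1-/- control, 80 in WT laser and 56 in WT control. The most common combination was Bmp2 with P2rx7, found in 75 members, followed by P2rx7 with Col14a1 in 52 members. All 4 rule genes were detected in 9 members. P2rx7 was detected in 83.3% to 94.6% of the members of a library, whereas Mmp13 was detected in 20% to 38.1%. Of the cells with at least 2 rule genes detected, 520 in all, 208 passed the remaining limits. Absence of Lyve1 removed the most cells and reduced 468 cells to 255. The class is thus bounded by detection of few UMIs. In cells that met every other limit, 755 cells had exactly 1 rule gene and lay just outside, whereas 163 had exactly 2 and lay just inside.

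Depth differed between the libraries. The members together held 222208 UMIs in Nr4a1-/- laser, 319326 in Nr4a1-/- control, 988404 in WT laser and 483278 in WT control, and their median UMI counts per cell were 6034, 7166.5, 11085 and 8094 in the same libraries. Kept barcodes shared between libraries numbered 17 over 6 pairs of libraries, and 0 members carried one. With 1 library per condition no spread between replicates could be measured. The intervals given below are exact 95% intervals that cover counting error only, and no p-value is given between conditions. A gene was called between conditions when its CPM (its UMIs per 1000000 UMIs of the class in a library) differed at least 2-fold, the library with more held 20 UMIs or more, and the interval lay on the called side of 1.

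The names Bmp2 and P2rx7 did not set the members apart from Lyve1 macrophages, a comparison class of 458 cells with Csf1r, Lyve1 and at least 2 of Lyve1, Folr2 and Cd163. Bmp2 had 171, 554, 199 and 656 CPM in members of Nr4a1-/- laser, Nr4a1-/- control, WT laser and WT control, against 266, 686, 360.4 and 432 CPM in Lyve1 macrophages of the same libraries. It was lower in members than in Lyve1 macrophages in every library but WT control. P2rx7 had 396, 899, 321 and 668 CPM in the members, against 300.5, 673, 558 and 664 CPM in Lyve1 macrophages. These levels overlapped between the classes.

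Mmp13, Col14a1 and Ms4a7 were higher in members in each of the 4 libraries. Mmp13 had 99.0, 416, 115 and 134 CPM in the members of these libraries, against 2.89, 44.7, 9.39 and 16.5 CPM in Lyve1 macrophages. Col14a1 had 67.8 to 128 CPM in members and 14.4 to 29.9 CPM in Lyve1 macrophages. Ms4a7, which the rule did not use, had 675, 849, 1011 and 1047 CPM in members and 361, 479, 576 and 479.5 CPM in Lyve1 macrophages. In microglia (cells with at least 2 of Tmem119, P2ry12 and Sall1) the summed level of the 4 rule genes was 86.3 to 156 CPM, against 703 to 1995 CPM in members. Because the rule counted detected genes, the levels of the 4 rule genes are a description and were not tested.

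**Figure D1:**
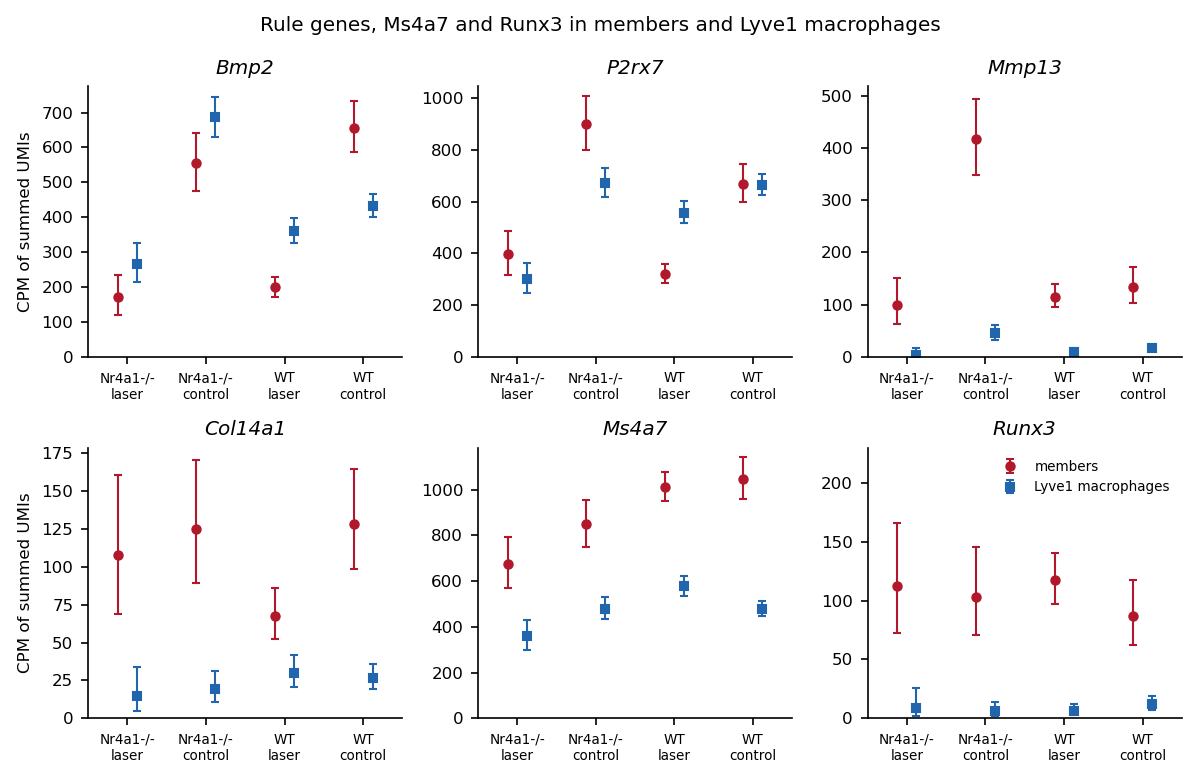
CPM of the 4 rule genes, Ms4a7 and Runx3 in members (circles) and Lyve1 macrophages (squares) of the 4 libraries, with exact 95% intervals for counting error as bars. Bmp2 and P2rx7 overlapped between the classes, whereas Mmp13, Col14a1, Ms4a7 and Runx3 were higher in members in all 4 libraries.

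The promoter of Mmp13, the collagenase gene in the name of the class, is shown because Mmp13 was the rule gene that differed most between the classes. It was taken from RefSeq, build GRCm38.p6, chr9:7272264-7272563, plus strand, 250 bases before to 50 bases after the start of the gene. Capitals mark 1 match of the RUNX core TGTGGT, which reads ACCACA on this strand at positions -118 to -113 from the start, and 1 match of the AP-1 motif TGACTCA at positions -35 to -29.
Mmp13: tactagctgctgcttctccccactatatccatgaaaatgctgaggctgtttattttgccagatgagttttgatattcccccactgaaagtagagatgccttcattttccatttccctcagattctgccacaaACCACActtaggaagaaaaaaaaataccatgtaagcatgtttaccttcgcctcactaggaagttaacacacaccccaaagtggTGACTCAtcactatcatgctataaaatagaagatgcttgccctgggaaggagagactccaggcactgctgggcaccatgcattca
Both strands were searched. TGTGGT was present in 16.8% of 32851 promoters of the same length, TGACTCA in 5.2% and both in 0.944%. A match of letters is not a measured binding site.

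Surface protein was a readout that the rule did not use. Tags were summed per class and library, and members were compared with Lyve1 macrophages of the same library by the quasi-likelihood test of edgeR on 8 sums with library as a block and Benjamini-Hochberg adjustment over 87 tags. Leaving aside the 6 tags of proteins whose genes either class rule uses, 6 tags (7.41% of 81) were higher in members and 1 (1.23%) was lower. CD11c, an integrin of dendritic cells and of some macrophages, increased by 2.03 on the log2 scale (SE 0.40, adjusted p = 0.0462, edgeR). CD14, the lipopolysaccharide co-receptor, increased by 1.55 (SE 0.31, adjusted p = 0.0462, edgeR), and CD11a, an integrin of leukocyte adhesion, also by 1.55 (SE 0.29, adjusted p = 0.0462, edgeR). All 3 were higher in members in each of the 4 libraries, although CD11c counts were low, with 12 tags in all Nr4a1-/- control members and 5 in all Lyve1 macrophages of that library. The summed CD14 difference was carried in part by few cells. Median CD14 counts per cell were 1, 1, 1 and 2 in members and 1 in Lyve1 macrophages of every library. A single member held 73 of 124 CD14 counts in Nr4a1-/- laser and 40 of 103 in Nr4a1-/- control. The 6 higher tags rested on all 4 libraries together. With any 1 library left out edgeR called 0 tags higher (7 to 11 at an unadjusted p under 0.05), and Tim-4 stayed lower only without WT laser. DESeq2 on all libraries called 9 higher and 4 lower, but in simulated counts it called 23 of 1340 unchanged tags, against 2 for edgeR.

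CD43, a sialoglycoprotein of leukocytes, had 10.4, 11.2, 13.5 and 18.1 TMM-scaled tags per 1000 in members of Nr4a1-/- laser, Nr4a1-/- control, WT laser and WT control, against 4.66, 4.47, 5.71 and 7.85 in Lyve1 macrophages (log2 difference 1.23, adjusted p = 0.0462, edgeR). CX3CR1, the fractalkine receptor, had 6.26, 7.86, 8.95 and 6.86 tags per 1000 in members and 2.24, 3.22, 5.48 and 2.87 in Lyve1 macrophages (1.18, adjusted p = 0.0496, edgeR). Its median share of the tags of a cell was 0.648% to 1.19% in members and 6.68% to 9.43% in microglia. CD61, an integrin beta chain, had a log2 difference of 1.01 (adjusted p = 0.0462, edgeR), but the adjusted p was 0.0899 without cells of more than 5000 tags. The transcript of CX3CR1 was higher in members of each library too. Cx3cr1 RNA had 405, 679.6, 399.6 and 542 CPM in members and 127, 302, 219.5 and 308 CPM in Lyve1 macrophages.

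Tim-4, the phosphatidylserine receptor of resident macrophages, was the tag that fell. It had 1.05, 3.30, 1.25 and 2.03 tags per 1000 in members of the 4 libraries, against 5.99, 14.6, 14.3 and 13.4 in Lyve1 macrophages (log2 difference -2.72, SE 0.34, adjusted p = 0.0258, edgeR). The groups did not overlap. The Tim-4 gene, Timd4, had 9.39 to 22.5 CPM in members and 108 to 185 CPM in Lyve1 macrophages. Tags of proteins whose genes chose the Lyve1 macrophages were lower in members as well, FrB by 4.09 and CD163 by 2.23 on the log2 scale, and are given as a description. The P2X7R tag, the protein of P2rx7, had medians of 1, 1, 2 and 1 counts per cell in members and 1, 2, 4 and 2 in Lyve1 macrophages, and its log2 difference was -0.28 (SE 0.22).

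The tag for I-A/I-E, the mouse MHC class II proteins, took a larger share of the tags of a cell in members. Its median share of the tags of a cell was 12.1%, 24.2%, 23.4% and 18.6% in members, against 3.38%, 4.11%, 8.54% and 4.95% in Lyve1 macrophages. As counts per cell the medians were 26.5, 63, 74.5 and 52.5 in members and 10, 21, 63 and 33 in Lyve1 macrophages. In 61 WT laser cells with Csf1r, at least 2 of Gdf15, Cxcl1 and Cxcl3 and no Lyve1, the median share was 26.2%. The other libraries held 3 or 4 such cells, with medians of 29.2% to 45.9%. A share also depends on the other tags of a cell. In WT control Lyve1 macrophages FrB and CD163, whose genes chose that class, had median shares of 17.2% and 15.6%. The summed I-A/I-E tags gave a log2 difference of 0.85 (SE 0.41, adjusted p = 0.355, edgeR), which did not pass the threshold. Single cells with very many tags weighed on these sums. A single Nr4a1-/- laser member held 12123 tags, 55.3% of its library's member tags, of which 8675 were Ly-6C. Without cells of more than 5000 tags, an alternative chosen after seeing the data, 7 tags were higher (Ly-6C and CD54 were added and CD61 was lost) and 4 were lower, among them Tim-4 and CD169. F4/80, a pan-macrophage protein, had medians of 1, 5, 2 and 4 counts per cell in members and 1, 6, 2 and 5 in Lyve1 macrophages. The CD64 tag had a median of 0 in both classes of WT control but 2 to 6 in members of the other libraries. The CD115 tag, the protein of Csf1r, had a median of 0 in members of every library.

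**Figure D2:**
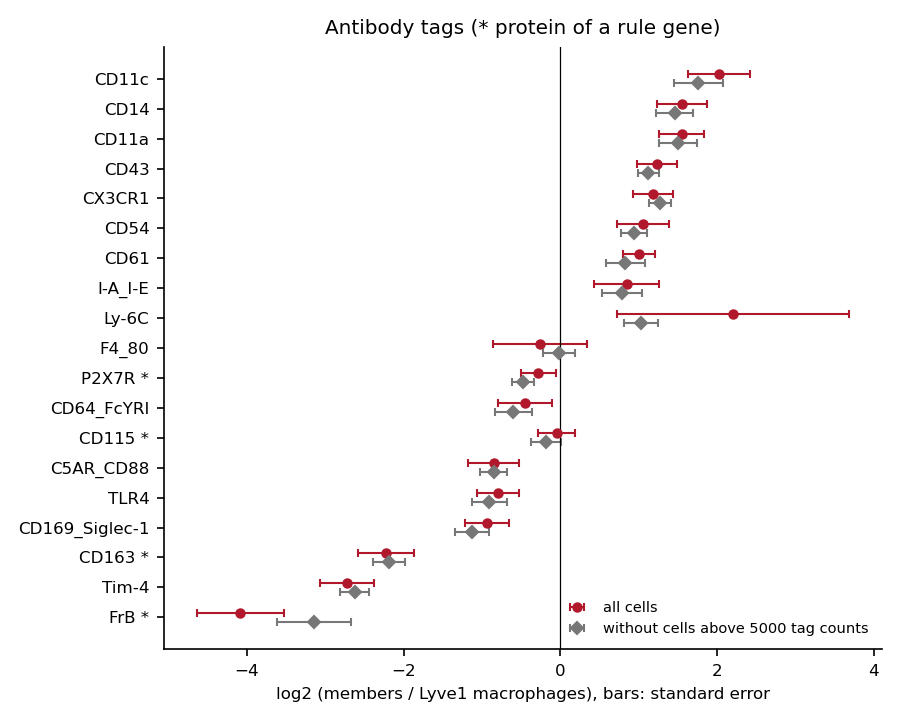
Log2 difference of summed antibody tags between members and Lyve1 macrophages, with the standard error of the edgeR fit as bars, for all cells (circles) and without cells above 5000 tags (diamonds). CD11c, CD14, CD11a and CD43 lay to the right of 0 and Tim-4 lay at -2.72. Asterisks mark proteins of genes that either class rule uses, which are description only.

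RNA also differed between the classes, but this contrast is the one the rule used and was not tested. Of 3071 genes with at least 20 UMIs in the class with more, 545 (17.7%) were higher in members in all 4 libraries and 742 (24.2%) were lower. At least 2-fold with an interval on the called side in all 4 libraries were 30 genes (1.08% of 2787) higher and 85 (3.05%) lower. Runx3, a transcription factor of leukocytes, led the higher genes with 112, 103, 117 and 86.9 CPM in members, against 8.67, 6.04, 5.98 and 12.1 CPM in Lyve1 macrophages. It was detected in 12, 15, 33 and 18 members of the libraries. Il7r, the interleukin 7 receptor, had 57.9 to 135 CPM in members and 0.636 to 34.7 CPM in Lyve1 macrophages. Runx3 and Il7r were also found in T and B cells, with a UMI in 21.6% to 41.3% and 23.7% to 39.4% of them. In members these shares were 32.1% to 41.25% and 11.9% to 32.5%. The part of lymphocyte RNA in these levels was not tested. Tgm2, a transglutaminase, had 86.9 to 189 CPM in members and 6.04 to 31.8 CPM in Lyve1 macrophages.

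Il1b, the inflammasome cytokine interleukin 1 beta, had 1008, 1644, 1283 and 1122 CPM in members, against 95.3, 205, 408 and 284 CPM in Lyve1 macrophages. A UMI of Il1b was present in 15 of 30 members of Nr4a1-/- laser, 24 of 42 of Nr4a1-/- control, 49 of 80 of WT laser and 33 of 56 of WT control. In T and B cells, which should lack it, the share with a UMI was 5.67% to 10.1%, at median depths of 2331.5 to 5205 UMIs per cell. Nlrp3, the inflammasome sensor downstream of P2rx7, had 454, 905, 538 and 896 CPM in members and 321, 284, 330.5 and 354 CPM in Lyve1 macrophages. Of 8 genes of the inflammasome and interleukin 1 list with enough UMIs, 2 were higher in members in all 4 libraries and 2 were lower. Of all genes 17.7% were higher and 24.2% were lower. Casp4, an inflammatory caspase, was among the lower genes of the list with 348 to 517 CPM in members and 564 to 645 CPM in Lyve1 macrophages. The list therefore did not move as 1 block. Its 17 genes summed to 2723, 4378, 3193 and 3619 CPM in members and 4362, 4412, 4396 and 4847 CPM in microglia.

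MHC class II genes, which present antigen, were mostly higher in members than in Lyve1 macrophages. Of 7 MHC class II genes, 6 were higher in members in all 4 libraries and 0 were lower, against 17.7% and 24.2% of all genes. Summed over the list, WT laser members had 21670 CPM. WT laser cells with at least 2 of Gdf15, Cxcl1 and Cxcl3 had 26630 CPM. In WT control, where 3 such cells were found, they had 8734 CPM against 18980 CPM in members. Cd74, the invariant chain, had 7106, 9827, 9912 and 10220.0 CPM in members and 4765, 4787, 6087 and 5205 CPM in Lyve1 macrophages. Cd52, a small surface glycoprotein, had 695 to 1483 CPM in members and 259 to 332 CPM in Lyve1 macrophages. Mpeg1, the pore-forming perforin-2 of macrophages, had 426 to 553.5 CPM in members and 132 to 198 CPM in Lyve1 macrophages. Cxcl16, a membrane-bound chemokine, had 349 to 470 CPM in members and 118 to 149.7 CPM in Lyve1 macrophages. The tetraspanin gene Cd9, the B cell co-receptor gene Cd72, the semaphorin gene Sema4d, the lamin gene Lmnb1, the poly(A) polymerase gene Tent5c, the GTPase regulator gene Abr, the formin gene Fmnl2 and AU020206 completed the 15 named higher genes.

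Some genes near absence in Lyve1 macrophages were present in few members. Itgax, the gene of CD11c, had 63.0, 34.4, 48.6 and 12.4 CPM in members and 0.854 to 2.89 CPM in Lyve1 macrophages, and its UMIs came from 5, 7, 18 and 3 members. Mmp12, the macrophage elastase, had 63.0, 360.1, 40.5 and 205 CPM in members and at most 4.27 CPM in Lyve1 macrophages. It was detected in 3, 7, 10 and 8 members. Dcstamp, a fusion protein of osteoclasts and dendritic cells, had 81.0, 382, 48.6 and 86.9 CPM in members and at most 8.54 CPM in Lyve1 macrophages. Of 4 bone and osteoclast genes with enough UMIs, 1 was higher in members in all 4 libraries and 0 were lower. Of all genes 17.7% were higher and 24.2% were lower. The higher gene of the list was Mmp13, a rule gene, so this count is no independent result. Tnfrsf11a, the osteoclast receptor RANK, had 97.2 to 182 CPM in members and 54.9 to 134 CPM in Lyve1 macrophages.

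Resident macrophage genes were the main lower group. All 15 genes of the Lyve1 resident list were lower in members in all 4 libraries, but 3 of them (Lyve1, Folr2 and Cd163) chose the comparison class. The lectin gene Cd209f had 9.001, 6.26, 14.2 and 0 CPM in members, against 378, 151, 185 and 160 CPM in Lyve1 macrophages. Fcgrt, the neonatal Fc receptor, had 81.0, 84.5, 97.1 and 72.4 CPM in members and 552, 431, 509 and 371 CPM in Lyve1 macrophages. The scavenger receptor gene Colec12, the endothelin receptor gene Ednrb, the ion pump modulator gene Fxyd2, the gelatinase gene Mmp9 and the transcription factor gene Klf9 were lower in the same way. Mrc1, the mannose receptor, had 667 to 1020.0 CPM in members and 2108 to 2535 CPM in Lyve1 macrophages. Of 12 complement genes, 10 were lower in members and 0 were higher, against 24.2% and 17.7% of all genes.

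Macrophage identity was present in both classes. Csf1r had 594, 745, 636 and 709.7 CPM in members and 878, 918, 1003 and 839 CPM in Lyve1 macrophages. C1qa, a chain of the complement protein C1q, had 2633 to 3282 CPM in members and 3579 to 4312 CPM in Lyve1 macrophages. Of all genes 17.7% were higher and 24.2% were lower in members in all 4 libraries, which applies to each list of this paragraph. Of 18 identity genes, 7 were higher and 7 were lower in members in all 4 libraries. Of 17 macrophage transcription factor genes, 3 were higher and 11 were lower. Maf had 328 to 501 CPM in members and 836 to 1044 CPM in Lyve1 macrophages. Of 11 BMP and TGF-beta genes, 4 were higher and 4 were lower, with the receptor gene Tgfbr1 at 378, 774, 317 and 619 CPM in members and 182, 250, 161 and 179 CPM in Lyve1 macrophages.

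**Figure D3:**
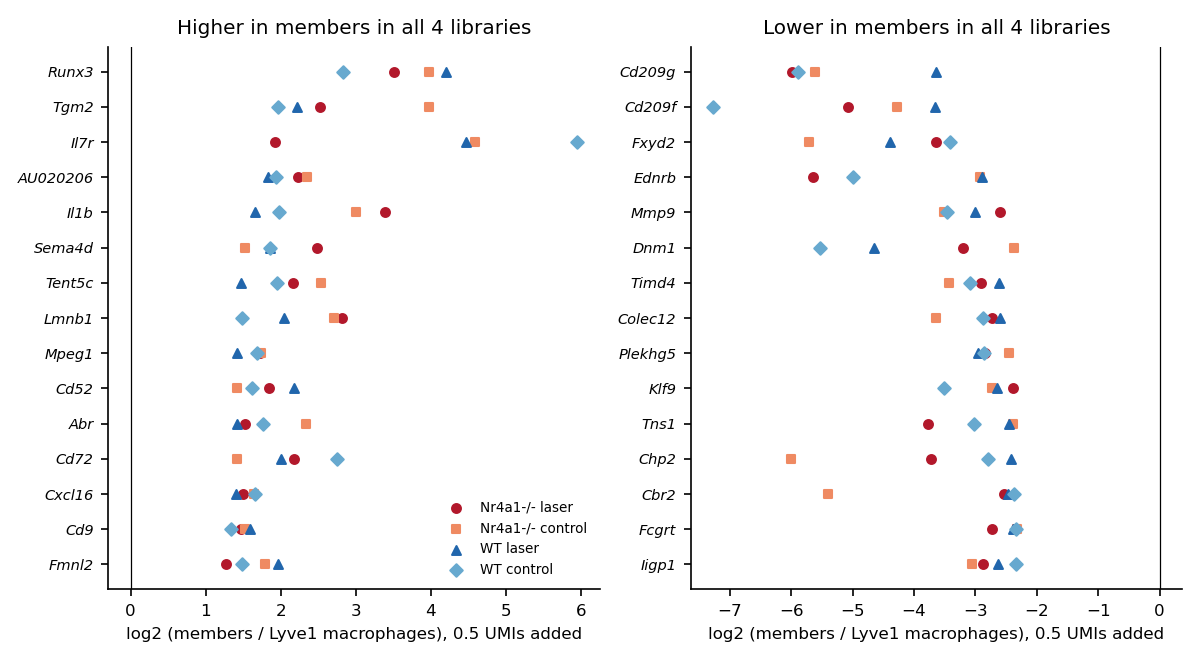
Log2 ratio of CPM between members and Lyve1 macrophages for the 15 named genes per direction, with 0.5 UMIs added, and 1 point for each of the 4 libraries. Runx3 tops the higher genes and Cd209g tops the lower genes. This contrast was used by the rule and is description only.

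Genes of other cell types were present at different levels in the members. The summed level of 12 microglia genes was 1204 to 1838 CPM in members and 6747 to 10350.0 CPM in microglia. That of 12 dendritic cell genes was 153 to 323 CPM and that of 10 non-classical monocyte genes 150.3 to 472 CPM. The level of 12 inflammatory genes, among them Gdf15, Cxcl1 and Cxcl3, was 10080 to 22540 CPM in members. That of 16 Spp1 and damage-associated genes was 13370, 6868, 12660 and 5341 CPM. That of 10 classical monocyte genes was 1494, 191, 1002 and 374.5 CPM. In 61 WT laser cells with Csf1r, at least 2 of Gdf15, Cxcl1 and Cxcl3 and no Lyve1, these lists had 21860, 10520 and 1671 CPM. None of 4 red cell globin genes had a UMI. The summed level of 9 T cell genes was 10.1 to 57.9 CPM, that of 8 fibroblast genes 4.14 to 18 CPM and that of 8 neutrophil genes 71.8 to 122 CPM. The summed level of 6 retinal pigment epithelium genes was 18, 141, 18.2 and 39.3 CPM, and that of 8 photoreceptor genes 9.001, 59.5, 6.07 and 18.6 CPM, so that both were highest in Nr4a1-/- control members. The summed level of 6 NK cell genes was 492 CPM in WT control members and at most 4.05 CPM in the other libraries. Gzma, a granule protease of these cells, came from 2 members of WT control. The part of these transcripts in the results was not tested.

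The share of members among kept cells was 1.82% in Nr4a1-/- laser, 2.08% in Nr4a1-/- control, 2.11% in WT laser and 1.49% in WT control, with exact Clopper-Pearson intervals of 1.23% to 2.59%, 1.5% to 2.8%, 1.68% to 2.62% and 1.13% to 1.93%. The ratio of laser to control was 0.875 in Nr4a1-/- eyes (0.529 to 1.43) and 1.42 in WT eyes (0.995 to 2.03). Between genotypes, Nr4a1-/- over WT, the share ratio was 0.862 in laser eyes (0.547 to 1.33) and 1.40 in control eyes (0.914 to 2.12). Each of these 4 intervals included 1, so no difference in share was detectable at this depth. The WT laser ratio lay close to that limit and moved with the settings. It was 1.498 (1.06 to 2.13) with no limit on Gdf15, Cxcl1 and Cxcl3 and 1.44 (1.003 to 2.07) without the highest doublet scores. With every cell thinned to 2000 UMIs, the members were 0.813% in Nr4a1-/- laser, 1.17% in Nr4a1-/- control, 0.592% in WT laser and 0.861% in WT control, and the ratio of laser to control in WT eyes was 0.688 (0.373 to 1.25). Thinning left out 419, 135, 246 and 396 shallower cells of these libraries and chose the members again, so that it changed depth and members together.

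Among cells with Csf1r and neither Cd3e nor Cd79a, members made up 4.46% in Nr4a1-/- laser, 6.02% in Nr4a1-/- control, 4.44% in WT laser and 4.26% in WT control. The ratio of laser to control was 0.742 in Nr4a1-/- eyes (0.448 to 1.21) and 1.04 in WT eyes (0.732 to 1.49). Lyve1 macrophages, by contrast, had a ratio of 0.415 in WT eyes (0.324 to 0.529) on the same denominator. The intervals of both classes in WT eyes did not overlap from all UMIs. With cells thinned to 2000 UMIs the ratios were 0.567 (0.307 to 1.03) for members and 0.360 (0.248 to 0.515) for Lyve1 macrophages, and the intervals overlapped.

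**Figure D4:**
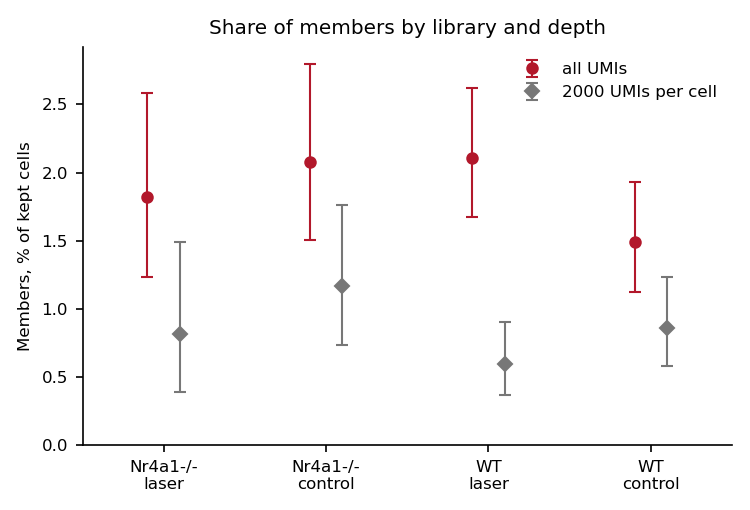
Members as a percentage of kept cells in the 4 libraries, from all UMIs (circles) and with each cell thinned to 2000 UMIs (diamonds), with exact Clopper-Pearson 95% intervals as bars. WT laser was the highest library from all UMIs (2.11%) and the lowest after thinning (0.592%).

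Laser and control eyes differed in what the members expressed. In Nr4a1-/- members 243 genes (8.76% of 2773) were called higher after laser and 284 (10.2%) lower, and in WT members 408 (7.56% of 5394) were called higher and 304 (5.64%) lower. Called in both genotypes were 67 genes higher (2.44% of 2743) and 61 lower (2.22%). The median log2 ratio of all genes was -0.11 in Nr4a1-/- members and 0.092 in WT members.

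Spp1, the secreted phosphoprotein osteopontin, ranked first among the higher genes. It had 4329 and 3609 CPM in Nr4a1-/- and WT laser members, against 197 and 49.7 CPM in Nr4a1-/- and WT control members, which is 21.9-fold (17.0 to 28.8) and 72.7-fold (48.8 to 114). The size moved with the choice of members. The ratio in Nr4a1-/- members was 5.89 (4.31 to 8.17) without Col14a1 as a rule gene and 155.5 (27.1 to 6217) with at least 3 rule genes, and that in WT members was 13.2 (1.83 to 577.5) with at least 3 rule genes. It had a UMI in 11 of 30 and 42 of 80 laser members and in 6 of 42 and 6 of 56 control members. T and B cells had a UMI of Spp1 in 7.55% and 20.5% of Nr4a1-/- and WT laser cells and in 1.06% and 1.41% of control cells. Their median depths were 2331.5, 5205, 4739.5 and 4711 UMIs in the same order. The shares in members were above these shares in every library. Members were deeper, however, with medians of 6034, 11085, 7166.5 and 8094 UMIs, and the shares were not compared at equal depth. A single member supplied 48.0% and 40.2% of the Spp1 UMIs in Nr4a1-/- and WT laser members.

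Ccr2, Fn1 and Vim were also higher after laser. Ccr2, the receptor for monocyte recruitment, had 356 and 338 CPM in Nr4a1-/- and WT laser members, against 28.2 and 47.6 CPM in Nr4a1-/- and WT control members, and was 12.6-fold (6.32 to 28.6) and 7.10-fold (4.65 to 11.4) higher. Fn1, fibronectin, had 824 and 230 CPM in laser members and 0 and 18.6 CPM in control members, and a count of 0 was taken as up to 3 UMIs, which made it at least 87.7-fold and 12.3-fold higher. Vim, vimentin, had 1818 and 2054 CPM in laser members and 307 and 550.4 CPM in control members. Of the classical monocyte genes that could be called, 3 of 3 in Nr4a1-/- members and 4 of 6 in WT members were called higher, and 0 were called lower. Over all genes 8.76% and 7.56% were called higher. Thbs1, thrombospondin 1, was 4.61-fold and 3.15-fold higher, and Acp5, the acid phosphatase of osteoclasts, 3.4-fold and 2.76-fold.

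Several other higher genes rested on few cells. Retnla, a secreted marker of alternative activation, had 2601 and 61.7 CPM in Nr4a1-/- and WT laser members and 0 and 4.14 CPM in control members, but a single member supplied 88.8% and 90.2% of the laser UMIs. The lysozyme gene Lyz1 had 76.9% and 83.6% of its laser UMIs in 1 member. Arg1, arginase 1, had 131 and 26.3 CPM in laser members and 0 CPM in both control libraries, from 5 and 7 laser members, and was at least 13.9-fold and at least 4.24-fold higher. Ccl8, a monocyte chemokine, had 310.5 and 353 CPM in laser members, against 0 and 20.7 CPM in control members, with a single member at 53.6% and 27.8% of the laser UMIs. The folate receptor gene Folr2 had 108 and 155 CPM in laser members, against 3.13 and 22.8 CPM in control members, and was found in 12 and 31 laser members and in 1 and 6 control members.

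Higher genes also came from energy metabolism and the cell cycle. Of the glycolysis genes that could be called, 4 of 8 were called higher in Nr4a1-/- members and 4 of 14 in WT members, with 0 lower, and the list medians were 1.03 and 0.588 on the log2 scale against -0.11 and 0.092 for all genes. Gapdh had 644 and 509.9 CPM in laser members and 213 and 228 CPM in control members. Tpi1 and Pgam1 were called in both genotypes as well. Of the cell cycle genes 5 of 6 and 4 of 8 were called higher, led by Birc5 (3.67-fold and 3.00-fold), a survivin that acts in mitosis. Over all genes 8.76% were called higher and 10.2% lower in Nr4a1-/- members, and 7.56% and 5.64% in WT members. Vegfa, the main angiogenic factor, had 58.5 and 55.6 CPM in laser members and 6.26 and 4.14 CPM in control members, and was called in WT members but had too few UMIs for a call in Nr4a1-/- members. Of 16 genes of the Spp1 and damage-associated list, 9 were called higher and 1 lower in WT members. In Nr4a1-/- members 5 of 14 were called higher and 2 lower.

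Bmp2 and P2rx7, genes of the name of the class, were lower after laser. Bmp2 had 171 and 199 CPM in Nr4a1-/- and WT laser members, against 554 and 656 CPM in Nr4a1-/- and WT control members, or 0.308-fold (0.211 to 0.440) and 0.304-fold (0.253 to 0.364). P2rx7 was 0.441-fold (0.343 to 0.561) and 0.480-fold (0.410 to 0.562). In thinned WT cells the ratios were 0.910 (0.637 to 1.29) for Bmp2 and 0.979 (0.723 to 1.32) for P2rx7. Mmp13 was 0.238-fold in Nr4a1-/- members and was called there, and the difference between genotypes was not tested. In WT members it was 0.858-fold (0.627 to 1.18), but 1.71-fold (1.14 to 2.57) with at least 3 rule genes and 3.00-fold (1.99 to 4.62) without Spp1 members. Since these genes chose the members, their levels inside members describe the class and are no independent result.

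Genes that the rule did not use were lower as well. Ptprm, a receptor phosphatase of cell contacts, had 36.0 and 15.2 CPM in Nr4a1-/- and WT laser members, against 207 and 273 CPM in Nr4a1-/- and WT control members. Cadm1, a cell adhesion protein, had 58.5 and 69.8 CPM in laser members and 335 and 360.0 CPM in control members. Inpp4b, a phosphoinositide phosphatase, had 58.5 and 58.7 CPM in laser members and 229 and 250.4 CPM in control members. Each was at least 3.91-fold lower in both genotypes. Prdm1, the repressor Blimp-1, and Mmp12, Dlc1, Rapgef5 and Zbtb10 belonged to the same group, and Il2ra, the interleukin 2 receptor alpha chain, was found in only 2 and 7 laser members and 4 and 3 control members. In thinned WT cells Inpp4b, Prdm1, Mmp12, Dlc1 and Rapgef5 turned to higher after laser. Zbtb10 did so in WT members with at least 3 rule genes. P2ry6, a receptor for UDP, was 0.460-fold and 0.493-fold, and Ccl3, a chemokine of inflammatory macrophages, was 0.288-fold and 0.418-fold.

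No MHC class II gene was called, with 0 of 6 in Nr4a1-/- members and 0 of 7 in WT members. Of 28 immediate-early and dissociation stress genes, 0 were called higher and 8 lower in Nr4a1-/- members. In WT members 1 of 26 was called higher and 1 lower. Over all genes 8.76% were called higher and 10.2% lower in Nr4a1-/- members, and 7.56% and 5.64% in WT members. In control members 5 of the 28 stress genes were called higher and 0 lower in Nr4a1-/- than in WT, against 2.27% and 5.64% of all genes. The Nr4a1-/- control library enters both this comparison and the laser ratio in Nr4a1-/- members, and its part was not tested. Of the NF-kB feedback genes, 5 of 16 in Nr4a1-/- members and 1 of 17 in WT members were called lower, against 10.2% and 5.64% of all genes. Of the BMP and TGF-beta genes, 0 of 9 and 1 of 13 were called higher and 3 and 2 lower. The rule gene Bmp2 was among the lower ones in both genotypes.

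**Figure D5:**
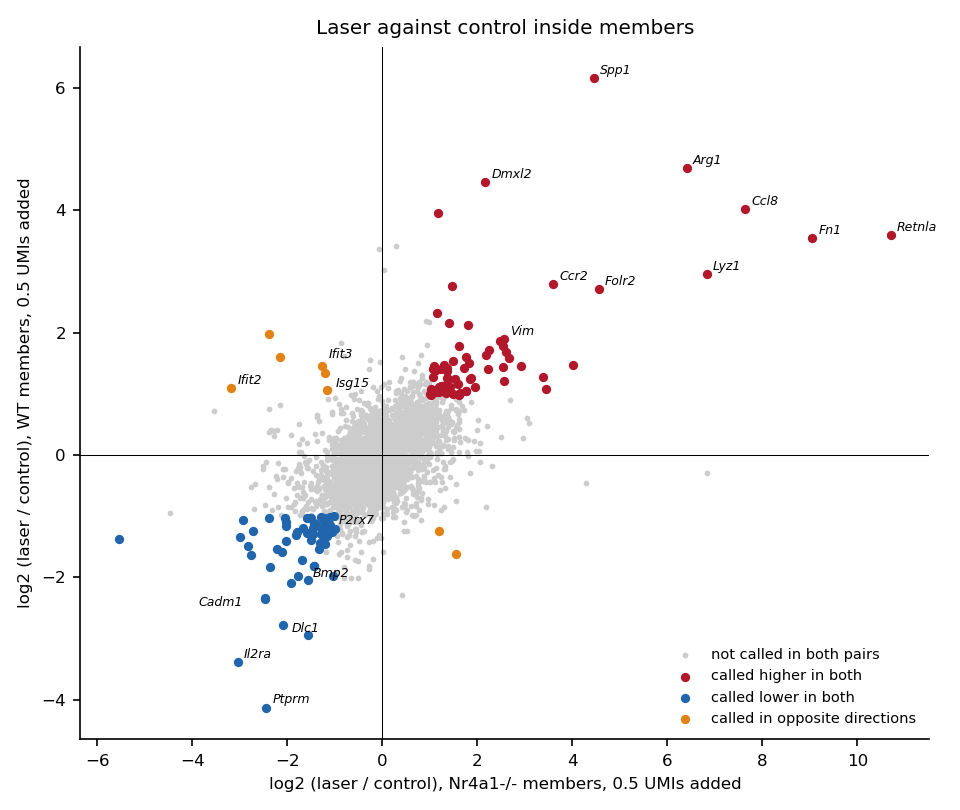
Log2 ratio of CPM between laser and control members, Nr4a1-/- on the horizontal axis and WT on the vertical axis, with 0.5 UMIs added and 1 point per gene that had enough UMIs in both pairs. The 67 genes called higher in both genotypes are red, with Spp1 at 21.9-fold and 72.7-fold, and the 61 called lower are blue.

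The laser calls moved with the settings. With every cell thinned to 2000 UMIs and the rule applied again, which also left fewer members and fewer genes at 20 UMIs, 1 gene was called higher in both genotypes and 6 lower. Among the 67 higher genes 29 then kept their direction in both genotypes, and among the 61 lower genes 35. Members with at least 3 rule genes gave 14 higher and 29 lower genes, with 58 and 47 of the main genes in the same direction in both genotypes. When the members with a UMI of Spp1 were left out, an alternative chosen after seeing the data, 34 were called higher and 36 lower, and 60 of 67 and 61 of 61 kept their direction. Spp1 did not follow the number of rule genes in 1 direction. In cells that met every other limit it had 4540.0, 3694, 4983 and 1798 CPM in Nr4a1-/- laser with 0, 1, 2 and 3 rule genes detected, and 2573, 2622, 4040.0 and 94.1 CPM in WT laser. Those with 3 rule genes were 4 and 10 cells.

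Between genotypes few genes were called in both pairs. In laser members 41 genes (0.97% of 4225) were higher in Nr4a1-/- and 168 (3.98%) lower. In control members 85 (2.27% of 3738) were higher and 211 (5.64%) lower. Called in both pairs were 2 genes higher (0.0673% of 2972) and 6 lower (0.202%). The median log2 ratio of all genes was -0.17 in laser members and -0.12 in control members.

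Nr4a1 itself was the first of the lower genes. It had 31.5 and 75.2 CPM in Nr4a1-/- laser and Nr4a1-/- control members, against 212 and 410 CPM in WT laser and WT control members, or 0.149-fold (0.0592 to 0.312) and 0.183-fold (0.115 to 0.281). The levels did not overlap between genotypes. Reads of the gene remained in 6 and 19 Nr4a1-/- members, and which part of the gene was removed is not given in the sources used here, so that the counts check the labels but not the protein. The other NR4A genes were not called in either pair.

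The remaining calls between genotypes were small or rested on few cells. Slfn8, a Schlafen family gene, had 54.0 and 81.4 CPM in Nr4a1-/- laser and control members, against 115 and 178 CPM in WT laser and control members (0.468-fold and 0.457-fold). Adgre4, an adhesion receptor of non-classical monocytes in mouse, had 0 and 3.13 CPM in Nr4a1-/- members and 29.3 and 47.6 CPM in WT members, but its WT UMIs came from 6 and 5 cells. Pet100, an assembly factor of the respiratory chain, and Nav3 were lower too. The chemokine gene Ccl5 had 40.5 and 15.7 CPM in Nr4a1-/- members and 107 and 422 CPM in WT members, with 99.5% of the WT control UMIs in 1 member, and its ratio in control members turned to 7.32 when the highest doublet scores were removed. The higher genes were Gpnmb, a lysosomal glycoprotein, and Areg, amphiregulin. A single member held 74.6% and 95.6% of the Gpnmb UMIs of Nr4a1-/- laser and control members, and without genes carried by 1 cell 0 genes were called higher.

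Hspa1a, a heat shock protein gene chosen after its values were seen, was highest in the Nr4a1-/- control library. Hspa1a had 117 and 1394 CPM in Nr4a1-/- laser and control members, against 130 and 78.6 CPM in WT laser and control members. The Lyve1 macrophages had 101 and 1640.0 CPM in Nr4a1-/- laser and control and 239 and 254 CPM in WT laser and control. The difference was thus present in both classes of the library that carries another library number. Its part in the results for the control pair was not tested.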

How the data were processed

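RNA and antibody tags of single cells were measured in 4 libraries, 1 per condition. Reads were aligned to mm10 in Cell Ranger 7.0.1 by the authors, who deposited raw UMI counts per cell for 32285 genes and 87 tags, with no normalization. Tag samples were mapped by title because their genotype and treatment labels all read alike. A cell was kept if it had 200 to 5000 genes and no more than 15% mitochondrial UMIs, which left 11223 cells. Members, gene lists and comparison classes were chosen with earlier results of these data known.

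UMIs were summed per class and library and scaled to CPM. Ratios carry exact conditional binomial intervals, shares carry Clopper-Pearson intervals and single levels carry exact Poisson intervals. RNA UMIs per library were 7848548 to 38052948, and the smallest member sum was 222208 UMIs. Tag sums were tested with edgeR 4.0.16 in R 4.3.3 (TMM, quasi-likelihood test, library block, 3 residual degrees of freedom, Benjamini-Hochberg adjustment, threshold 0.05), with DESeq2 1.42.0 as an alternative. Tested on simulated counts of 87 tags for this comparison, edgeR called 44% of tags changed 4-fold, 8.5% of those changed 2-fold and 2 of 1340 unchanged tags. DESeq2 called 68.5%, 21% and 23 of 1340 on the same counts.

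Named genes were the rule genes, Ms4a7, Nr4a1 and Csf1r, up to 15 per direction against Lyve1 macrophages (at least 20 UMIs in the class with more in each library, ranked by the smallest ratio), up to 10 per direction called in both pairs for laser and for genotype, up to 4 per list with the most UMIs, and list genes called in both pairs. Named tags were up to 10 per direction and a preset group of 8. Maf, Hspa1a, Vegfa, Rsad2, the genes called in opposite directions and the promoter shown were chosen after their values were seen.

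The automatic threshold of Scrublet (scanpy 1.11.5) marked 17 cells (0.152%) and was judged not to work, so doublets were left in, and removal of the 305 highest scores, 5 of them members, was an alternative. The other alternatives were TMM scaling, the UMI minimum, thinned cells, the number of rule genes, Col14a1, the Gdf15 group limit, the limits on genes and mitochondrial UMIs, the denominator of shares, the tag scaling and minimum, the block and each library left out. Chosen after seeing the data were leaving out cells above 5000 tags, genes carried by 1 cell or members with Spp1, and other member definitions in the contrast with Lyve1 macrophages.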

Additional observations from a re-analysis of the deposited data

Results flagged for a closer look

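Some genes were called in opposite directions in the 2 pairs of libraries, and none of these differences was tested. With 1 library per condition there is no spread to set them against.

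For laser against control, 2743 genes could be called in both pairs and 8 were called in opposite directions. Of these 8 genes, Isg15, Ifit2 and Ifit3 were on the interferon-response list, of which 12 genes could be called in Nr4a1-/- members and 17 in WT members. Isg15, an interferon-induced ubiquitin-like protein, was 0.421-fold in Nr4a1-/- members and 2.57-fold in WT members. Ifit2 was 0.0898-fold and 2.19-fold, Ifit3 was 0.396-fold and 2.79-fold, and the RNA sensor gene Oasl1 was 0.196-fold and 3.11-fold in the same members. These 4 genes were lower after laser in Nr4a1-/- members and higher after laser in WT members. The sugar phosphate transporter gene Slc37a2 was 0.435-fold and 2.13-fold, and Ednrb was 0.166-fold and 4.16-fold, with up to 84.6% of its UMIs in 1 cell. In the other direction, the adhesion scaffold gene Nedd9 was 2.97-fold in Nr4a1-/- members and 0.324-fold in WT members, and the DNA polymerase gene Pola1 was 2.32-fold and 0.423-fold. Up to 71.4% of the Pola1 UMIs of a higher library were in 1 cell.

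For Nr4a1-/- against WT, 2972 genes could be called in both pairs. The fatty acid binding protein gene Fabp5 was 0.414-fold in laser members and 2.90-fold in control members. It had 69, 44, 742 and 23 UMIs in Nr4a1-/- laser, Nr4a1-/- control, WT laser and WT control. Up to 54.5% of the Fabp5 UMIs of a higher library were in 1 cell. Siglech, a sialic acid binding lectin, was 0.162-fold in laser members and 2.30-fold in control members. Glipr1 was 0.427-fold and 2.23-fold, Gm37240 was 0.327-fold and 2.42-fold, Ifit2 was 0.105-fold and 2.55-fold, Ifit3 was 0.312-fold and 2.19-fold, and Ednrb was 0.196-fold and 4.92-fold. The chitinase-like gene Chil3 was 2.12-fold in laser members and 0.0541-fold in control members, with 89.3% of the UMIs of its higher library in 1 cell. Itch, a ubiquitin ligase, was 2.01-fold and 0.404-fold, the kinase gene Hipk1 was 2.07-fold and 0.466-fold, and Nedd9 was 2.93-fold and 0.320-fold. The Nr4a1-/- control library, which carries another library number, enters every control ratio here and every laser ratio in Nr4a1-/- members, and its part was not tested.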

How the results depend on the processing

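The share ratio of laser to control in WT eyes, 1.42 in all, was 0.688 with thinned cells, 0.575 with at least 3 rule genes and 0.754 without Spp1 members, but 1.498 with no limit on Gdf15, Cxcl1 and Cxcl3 and 1.44 without the highest doublet scores, both with intervals above 1. That in Nr4a1-/- eyes was 0.445 with at least 3 rule genes, and the genotype ratio in laser eyes was 1.37 with thinned cells. The laser calls shared by both genotypes, 67 higher and 61 lower, became 106 higher at a minimum of 10 UMIs. Higher and lower genes numbered 31 and 35 at 50 UMIs, 1 and 6 with thinned cells, with at least 3 rule genes 14 and 29, and without Spp1 members 34 and 36. For the genotype calls shared by both pairs, 2 higher and 6 lower, the higher genes were 5 at 10 UMIs, 1 at 50 UMIs, 0 with thinned cells, 1 with at least 3 rule genes, 1 without Col14a1 and 0 without genes carried by 1 cell. The lower genes were 10 with TMM scaling, 3 at 50 UMIs, 15 with at least 3 rule genes, 15 without Col14a1 and 12 without Spp1 members. Genes higher than in Lyve1 macrophages in all libraries, 545, were 328 with at least 3 rule genes. The cause of these moves was not tested.

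The 6 tags called higher passed only with the tags of rule genes in the adjustment. Their number was 0 with DESeq2 size factors in edgeR, 2 with total counts, 0 with at least 3 rule genes and 1 without the highest doublet scores. Tags called lower, 1 in all, were 4 with DESeq2, 0 with total counts and 4 without cells above 5000 tags. Without the library block, which pairs both classes of a library, 0 tags were higher and 1 was lower. Leaving out 1 library gave 0 tags higher and 0 to 1 lower. At an unadjusted p under 0.05 in edgeR, the higher tags numbered 8 with DESeq2 size factors, 9 without the block, 6 with at least 3 rule genes and 7 to 11 with a library left out, and with total counts 20 were higher and 1 lower. DESeq2 called 9 higher.

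Called laser ratios in WT members that turned direction in thinned cells were Dlc1 1.66, Dmxl2 0.691, Inpp4b 2.24, Mmp12 2.76, Prdm1 2.07 and Rapgef5 1.21. Ratios near 1 that passed to the other side included Mmp13 at 2.37 and Ms4a7 at 1.70 in thinned cells, and Mmp13 at 1.71 with at least 3 rule genes and 3.00 without Spp1 members. With at least 3 rule genes Ccl8 was 0.366, P2rx7 1.23 and Zbtb10 1.46, and without Spp1 members Lyz1 was 0.988. Genotype ratios that turned in laser members were Ccl5 at 1.05 thinned and 21.2 with at least 3 rule genes, Gpnmb at 0.577 without Col14a1 and 0.112 without Spp1 members, Ms4a7 at 1.16 with at least 3 rule genes and Pet100 at 1.05 thinned. Those in control members were Areg at 0.439 thinned, Ccl5 at 7.32 without the highest doublet scores, Gpnmb at 0.659 thinned and 0.364 with at least 3 rule genes, Ms4a7 at 1.13 thinned and Pet100 at 1.09 with at least 3 rule genes. Against Lyve1 macrophages, all 15 named higher genes kept their direction in every library under each other choice of members, except that 12 of 15 did so without Spp1 members. Depth limits genes under about 20 UMIs in the smallest sums.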

Other observations

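Of the interferon-response genes that could be called after laser, 1 of 12 was called higher and 3 lower in Nr4a1-/- members, with a list median of -0.16 on the log2 scale against -0.11 for all genes. In WT members 10 of 17 were called higher and 0 lower, with a list median of 1.16 against 0.092 for all genes. Over all genes 8.76% were called higher and 10.2% lower in Nr4a1-/- members, and 7.56% and 5.64% in WT members. Rsad2, an antiviral enzyme, had 67.5 CPM in Nr4a1-/- laser members and 125 CPM in Nr4a1-/- control members. It had 297 CPM in WT laser members and 82.8 CPM in WT control members. Between genotypes 1 of 17 was called higher and 7 lower in laser members, and 3 of 12 higher and 0 lower in control members. Over all genes 0.97% were higher and 3.98% lower in laser members, and 2.27% and 5.64% in control members. The difference between genotypes in the laser ratio was not tested.

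Ccl4 had 1715 and 3744 CPM in Nr4a1-/- and WT laser members and 6182 and 7052 CPM in Nr4a1-/- and WT control members, and was called lower in Nr4a1-/- members alone. That difference was not tested. Ccl6 had 275 and 383 CPM in laser members and 103 and 84.8 CPM in control members, and Ccl9 had 266 and 203 CPM in laser members and 90.8 and 84.8 CPM in control members, and both were called higher in both genotypes. Of the chemokine ligand genes that could be called, 4 of 13 in Nr4a1-/- members and 4 of 15 in WT members were higher, against 8.76% and 7.56% of all genes, and 2 were lower in each genotype, against 10.2% and 5.64% of all genes. Pltp, a phospholipid transfer protein, had 374 and 370.3 CPM in laser members and 78.3 and 112 CPM in control members, and was called in both genotypes.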
